A study of Mus musculus with 49 samples.

Results

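This account covers 10 genes of tumour necrosis factor (TNF) and NF-κB signalling in the neocortex of a mouse model of TDP-43 proteinopathy. The genes were taken by their symbols from the deposited count table, as Tnf, Tnfrsf1a, Tnfrsf1b, Nfkb1, Rel, Nfkb2, Relb, Nfkbia, Tnfaip3 and Birc3, out of 45252 symbols in all. Neocortical RNA was sequenced from 49 mice on a mixed C57BL/6J × C3H/HeJ background, with 1 library per mouse, and all of them were killed at 28.5 weeks of age. The bigenic rNLS8 mice carry NEFH-tTA, in which a neurofilament promoter drives the transactivator in neurons, together with tetO-hTDP43ΔNLS, a human TDP-43 that lacks the signal for nuclear import. Doxycycline, which keeps the transgene silent, was withdrawn from the chow at 25.5 weeks, 3 weeks before tissue was taken. The monogenic controls carry only the tetO-hTDP43ΔNLS allele and went through the same diet change. The groups were 17 monogenic mice given PBS (ctrl PBS), 10 rNLS8 mice given PBS (TDP-PBS), 10 rNLS8 mice immunized with TDP-43 peptides 10 and 12 together (TDP10 + 12) and 12 rNLS8 mice immunized with peptide 15 (TDP15). Immunization began at 8 weeks of age, with 40 µg of peptide conjugate per injection or PBS in its place. Alhydrogel and a CpG oligonucleotide went with the peptide conjugates. The methods have PBS in place of the conjugates for both PBS groups and do not mention the adjuvants for them separately.

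TNF is a cytokine that microglia and other myeloid cells release on activation. It acts through 2 receptors, a broadly expressed one that recruits a complex of adaptors, kinases and ubiquitin ligases, and a second one found mainly on immune, glial and endothelial cells. Both lead to IκB kinases, which mark the IκB inhibitors for destruction and so free NF-κB dimers to enter the nucleus. A slower, noncanonical branch matures the Nfkb2 product, which then pairs with RelB. Several NF-κB genes, among them those for IκBα (Nfkbia) and the ubiquitin-editing enzyme of Tnfaip3, are themselves targets of NF-κB and restrain the response.

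The promoters of the feedback genes are shown because their κB sites are the textbook link between the subunits and the inhibitors measured here. RefSeq promoter windows (GRCm38.p6) were at hand for 8 of the 10 genes, and not for Nfkb1 and Relb. A match to the κB consensus on either strand within the 250 bases before an annotated start was found for 4 of the 8, namely Rel, Nfkb2, Nfkbia and Tnfaip3. No match stood in the windows of Tnf, Tnfrsf1a, Tnfrsf1b and Birc3. For comparison, 10.7% of 13340 tested genes with a window held a match, as did 8.23% of 27025 genes in the promoter table. Matches on the 2 strands and overlapping matches were counted as 1 stretch below. Capitals mark the bases that matched, each stretch reads 5′ to 3′ on the strand of its gene, and the order follows the roles of the genes.
Rel: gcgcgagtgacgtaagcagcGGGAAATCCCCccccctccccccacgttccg
Nfkb2 distal: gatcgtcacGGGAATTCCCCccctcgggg
Nfkb2 proximal: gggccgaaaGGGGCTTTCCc
Nfkbia: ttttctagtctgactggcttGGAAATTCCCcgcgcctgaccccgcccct
Tnfaip3 distal: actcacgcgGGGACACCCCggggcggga
Tnfaip3 proximal: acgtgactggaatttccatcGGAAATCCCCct
The Rel stretch lies at chr11:23771031-23771081 on the minus strand, with its match 82 to 92 bases before the start of Rel, and overlaps no annotated exon. The Nfkb2 stretches lie on the plus strand at chr19:46304689-46304717 and chr19:46304717-46304736, with their matches 29 to 39 and 2 to 11 bases before 1 of 3 annotated starts, and the windows of the other starts held further matches that are not printed. They overlap exons of the noncoding AC114539.1 and of other Nfkb2 transcripts. The Nfkbia stretch lies at chr12:55492648-55492696 on the minus strand, with its match 20 to 29 bases before the start. The Tnfaip3 stretches lie on the minus strand at chr10:19015517-19015544 and chr10:19015411-19015442, with their matches 116 to 125 and 3 to 12 bases before 1 of 2 annotated starts.

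Libraries held 17775738 to 21033608 counts, with a median of 19955601. Levels are CPM, that is counts scaled to a common library size after TMM normalization, and 3 counts, taken as the floor of detection, correspond to 0.143 to 0.169 CPM. Of the 45252 genes 18220 passed the filter on low counts, all 10 members among them. The neocortex expressed its neuronal markers strongly, with the summed level of 8 neuronal genes at 10864 to 15106 CPM in ctrl PBS. The sexes read from the libraries matched the labels in 49 of 49 mice. TDP-PBS mice 26 and 91, TDP15 mice 254 and 126 and TDP10 + 12 mouse 301 had the lowest median correlation with their own group, 0.973 to 0.977. Leaving out any 1 of these 5 changed no call for the 10 genes. The next lowest, ctrl PBS mouse 137, was at 0.977 as well. Without it the calls of Nfkb1 in TDP10 + 12 and of Nfkbia in TDP15 changed. Without TDP15 mouse 184, also at 0.977, the Nfkbia call in TDP15 changed.

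The first question was how the pathway differed between rNLS8 mice and monogenic controls. The controls lack NEFH-tTA as well as expression of the transgene, and the parts of these cannot be told apart. In TDP-PBS mice 8 of the 10 genes were higher than in ctrl PBS, 0 were lower, and Rel and Tnfaip3 did not pass the test (edgeR quasi-likelihood test on all 49 mice, adjusted p under 0.05). In the same comparison 43.5% of all tested genes were called, 21.9% as higher. The median log2 fold change over the 10 genes was 0.54, and over all tested genes it was -0.00039. Tnf passed the filter through rNLS8 mice, which make up 22 of the 24 mice at or above the 0.501 CPM it requires, and of the 9 other members 7 were called higher, the median over the 9 being 0.41. The levels of all 10 genes in each mouse are plotted by group.

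**Figure D1:**
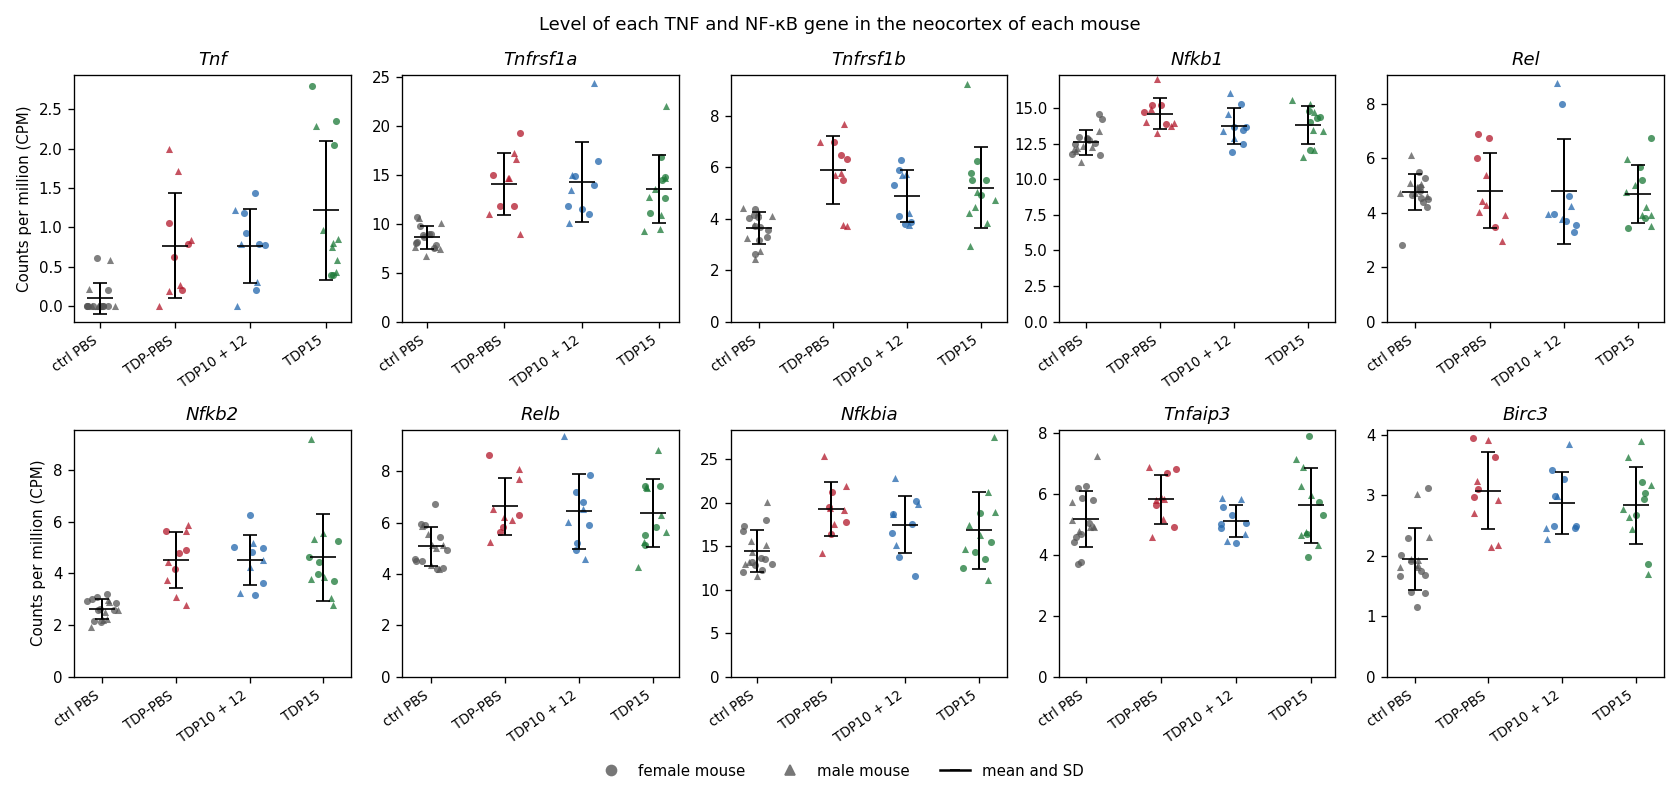
CPM of each gene (y axis, linear) in each mouse, by group on the x axis, with circles for females, triangles for males and a bar for the mean and SD of 17, 10, 10 and 12 mice. Tnf, Tnfrsf1a, Tnfrsf1b and Nfkb2 stand above ctrl PBS in most rNLS8 mice, whereas the Rel means lie between 4.68 and 4.81 CPM in all 4 groups with a wider scatter in rNLS8 mice.

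Tnf, the ligand (chromosome 17, 35199367 to 35202007, minus strand, GRCm38), was at the edge of detection. Its count was 0 in 13 of 17 ctrl PBS mice, and the other 4 had 4, 4, 11 and 12 counts. In TDP-PBS the counts ran from 0 over a median of 14.5 to 42, in TDP10 + 12 from 0 over 16 to 29, and in TDP15 from 8 over 16.5 to 56. Thus 9 of 10 TDP-PBS, 9 of 10 TDP10 + 12 and 12 of 12 TDP15 mice had any Tnf count, and 21 of the 32 rNLS8 mice lay above the highest control.

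Tnf averaged 0.0947 ± 0.201 CPM (SD, n = 17) in the controls. The mean was 0.767 ± 0.669 for the 10 TDP-PBS mice, 0.762 ± 0.469 for the 10 TDP10 + 12 mice and 1.22 ± 0.884 for the 12 TDP15 mice. The fitted log2 fold change in TDP-PBS was 2.94 (SE 0.61, adjusted p = 7.65e-05). It depends on the prior count of the fit, since most controls were at 0. The share of mice with any count differed from ctrl PBS by Fisher's exact test, two-sided and adjusted over 3 comparisons, with p = 0.00134 for TDP-PBS, 0.00134 for TDP10 + 12 and 0.000178 for TDP15. A two-sided permutation test of the mean level with 100000 resamples gave adjusted p = 0.00036, 0.00015 and 3e-05 in the same order. Both tests were chosen after the counts had been seen.

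The Tnf counts came in steps. Of the 34 counts above 0, 25 were multiples of 4, which is 73.5%, where the median over 23481 genes with counts in at least 30 mice was 22.4%. Over the other 9 members the share was 20.4% to 34.7%, and it was 20.4% for Lta, a TNF family gene counted in all 49 mice. Of 8 genes with a share over 60%, 5 lay within 172 kb of chromosome 17, namely Gm52318, Mpig6b, Gm20522, Apom and Tnf. The cause of the steps was not tested. With the Tnf counts divided by 4 and rounded, the log2 fold change was 2.65 in TDP-PBS (adjusted p = 0.000258), 2.70 in TDP10 + 12 (adjusted p = 0.000201) and 3.33 in TDP15 (adjusted p = 7.70e-07). The divided counts would not pass the filter on low counts, and Tnf was kept in this fit all the same. In fits of ctrl PBS with only 1 rNLS8 group the undivided counts did not pass it either, and Tnf was not tested there.

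**Figure D2:**
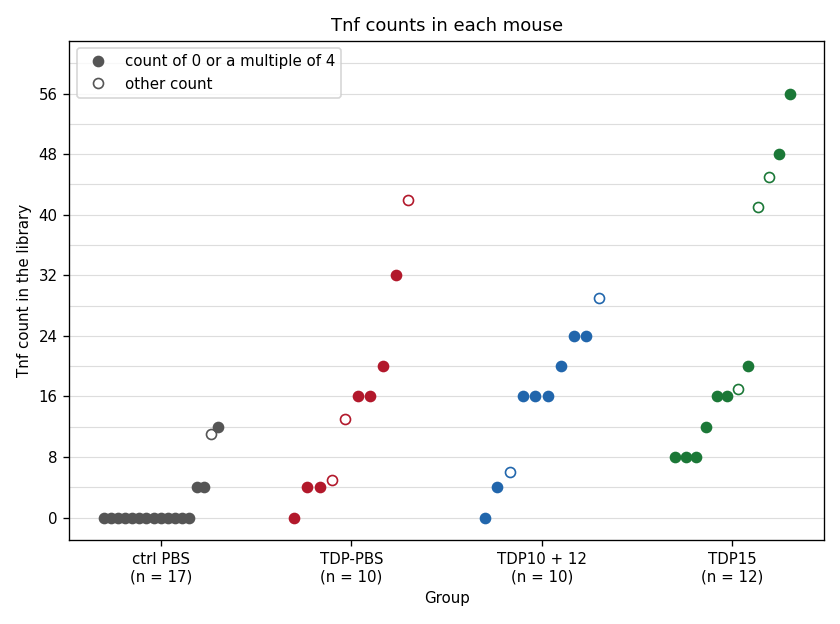
Tnf count of each mouse (y axis, linear, with lines at every multiple of 4) by group on the x axis, sorted within a group. Filled points are 0 or a multiple of 4 and open points are other counts, and 13 of 17 ctrl PBS mice sit at 0 where 12 of 12 TDP15 mice sit at 8 or above.

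Both receptors rose. Tnfrsf1a encodes the broadly expressed TNF receptor (chromosome 6, 125349723 to 125362483, plus strand). Its lowest, median and highest levels were 6.74, 8.63 and 10.7 CPM in ctrl PBS, 8.96, 14.7 and 19.3 in TDP-PBS, 10.0, 13.6 and 24.3 in TDP10 + 12, and 9.24, 13.1 and 21.98 in TDP15. The groups overlapped only at their edges, with 28 of 32 rNLS8 mice above every control. The log2 fold change was 0.71 (SE 0.12, adjusted p = 1.99e-06) in TDP-PBS, 0.72 (SE 0.12, adjusted p = 1.51e-06) in TDP10 + 12 and 0.65 (SE 0.11, adjusted p = 3.36e-06) in TDP15. The highest value belonged to TDP10 + 12 mouse 301, and without it that fold change was 0.62.

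Tnfrsf1b encodes the receptor of immune and glial cells (chromosome 4, 145212368 to 145246870, minus strand). In the lowest, median and highest mouse it was at 2.42, 3.70 and 4.41 CPM in ctrl PBS, 3.72, 6.04 and 7.69 in TDP-PBS, 3.77, 4.76 and 6.29 in TDP10 + 12, and 2.94, 4.98 and 9.24 in TDP15. Of the rNLS8 mice 22 of 32 were above every control, 8 of 10 in TDP-PBS, 5 of 10 in TDP10 + 12 and 9 of 12 in TDP15. The log2 fold change was 0.70 (SE 0.13, adjusted p = 8.38e-06) in TDP-PBS, 0.43 (SE 0.13, adjusted p = 0.00568) in TDP10 + 12 and 0.52 (SE 0.12, adjusted p = 0.000315) in TDP15.

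Among the NF-κB subunits Nfkb2 and Relb had the largest fitted changes and Rel did not pass the test. Nfkb2 encodes the precursor processed in the noncanonical branch (chromosome 19, 46300994 to 46312400, plus strand). The lowest, median and highest levels of Nfkb2 were 1.90, 2.59 and 3.18 CPM in ctrl PBS, 2.78, 4.62 and 5.85 in TDP-PBS, 3.16, 4.66 and 6.24 in TDP10 + 12, and 2.78, 4.19 and 9.19 in TDP15. All but 5 of the 32 rNLS8 mice were above the highest control. The fitted fold change of Nfkb2 on the log2 scale was 0.79 (SE 0.13, adjusted p = 3.22e-06) in TDP-PBS, 0.79 (SE 0.13, adjusted p = 3.61e-06) in TDP10 + 12 and 0.83 (SE 0.13, adjusted p = 3.77e-07) in TDP15, where leaving out the highest mouse, 126, gave 0.69. Of the 4584 exon bases of Nfkb2, 299 are also exons of Psd and 531 of AC114539.1 on the opposite strand, and the strand setting of the counting is not given in the sources used here, so that the Nfkb2 counts are uncertain. Psd itself had a log2 fold change of 0.08 (SE 0.05, adjusted p = 0.149) in TDP-PBS.

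Relb encodes the partner of the processed Nfkb2 product (chromosome 7, 19606217 to 19629438, minus strand). Relb had lowest, median and highest levels of 4.18, 5.001 and 6.73 CPM in ctrl PBS, 5.25, 6.25 and 8.62 in TDP-PBS, 4.56, 6.27 and 9.35 in TDP10 + 12, and 4.27, 6.06 and 8.83 in TDP15. The groups overlapped broadly, with 12 of 32 rNLS8 mice above every control. Relb changed, on the log2 scale, by 0.39 (SE 0.10, adjusted p = 0.0018) in TDP-PBS, 0.34 (SE 0.10, adjusted p = 0.00595) in TDP10 + 12 and 0.33 (SE 0.10, adjusted p = 0.0049) in TDP15.

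Nfkb1 encodes the classical partner of RelA (chromosome 3, 135584655 to 135691969, minus strand) and had the smallest change that passed. In the order lowest, median and highest, Nfkb1 was at 11.2, 12.5 and 14.6 CPM in ctrl PBS, 13.3, 14.4 and 17.0 in TDP-PBS, 11.9, 13.6 and 16.1 in TDP10 + 12, and 11.6, 14.2 and 15.5 in TDP15. Of the rNLS8 mice 11 of 32 were above every control. Nfkb1 changed, on the log2 scale, by 0.21 (SE 0.05, adjusted p = 0.000459) in TDP-PBS, 0.12 (SE 0.05, adjusted p = 0.0416) in TDP10 + 12 and 0.13 (SE 0.05, adjusted p = 0.0199) in TDP15. The TDP10 + 12 call was lost without ctrl PBS mouse 110, 137, 280 or 322 or without TDP10 + 12 mouse 47 or 130, with adjusted p from 0.0507 to 0.0821. It was also lost without the filter on low counts (0.0846), with DESeq2 (0.0539) and with limma-voom (0.0585), and the TDP15 call was lost without the filter (0.0505).

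Rel, a subunit best known from lymphoid and myeloid cells (chromosome 11, 23736847 to 23770969, minus strand), had a mean between 4.68 and 4.81 CPM in every group and a wider scatter in rNLS8 mice. The controls averaged 4.76 ± 0.675 CPM (SD, n = 17), the TDP-PBS mice 4.81 ± 1.36 (n = 10), the TDP10 + 12 mice 4.78 ± 1.94 (n = 10) and the TDP15 mice 4.68 ± 1.06 (n = 12). The log2 fold changes against ctrl PBS were 0.02 (95% interval -0.26 to 0.30, adjusted p = 0.931), 0.01 (-0.27 to 0.29, adjusted p = 0.972) and -0.02 (-0.29 to 0.24, adjusted p = 0.907). The difference in spread was not tested. In TDP10 + 12, mice 266 and 301 had 160 and 177 Rel counts, whereas the other 8 had 71 to 94. Without mouse 301 the log2 fold change of that group was -0.12 (adjusted p = 0.504). In TDP-PBS, mice 42 and 270 had 139 and 140 counts and mouse 91 had 60, with a group median of 87.5.

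Of the inhibitors, Nfkbia rose in the first 2 rNLS8 groups and Tnfaip3 did not pass the test in any. Nfkbia encodes IκBα (chromosome 12, 55489409 to 55492647, minus strand). For Nfkbia the lowest, median and highest levels were 11.6, 13.5 and 20.1 CPM in ctrl PBS, 14.2, 19.3 and 25.4 in TDP-PBS, 11.6, 18.1 and 22.8 in TDP10 + 12, and 11.2, 15.9 and 27.6 in TDP15. The groups overlapped widely, with 7 of 32 rNLS8 mice above every control and 2 below. On the log2 scale Nfkbia changed by 0.41 (SE 0.11, adjusted p = 0.00122) in TDP-PBS, 0.28 (SE 0.11, adjusted p = 0.0335) in TDP10 + 12 and 0.22 (SE 0.10, adjusted p = 0.0699) in TDP15.

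The Nfkbia calls in the immunized groups rested on single mice. In TDP10 + 12 the call was lost without ctrl PBS mouse 232 (adjusted p = 0.0501) or without TDP10 + 12 mouse 47 (0.0521), 51 (0.0746) or 130 (0.0508), and with limma-voom (0.0757). In TDP15 it was gained without ctrl PBS mouse 137 or 221, TDP10 + 12 mouse 337 or TDP15 mouse 54, 184 or 269, with adjusted p from 0.0272 to 0.0475. Without TDP15 mouse 126, the highest of its group, the log2 fold change went from 0.22 to 0.13 (adjusted p = 0.257). Whether the TDP15 and TDP-PBS effects on Nfkbia differ is given by their direct comparison below, which did not pass the test.

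Tnfaip3 encodes a deubiquitinase that shuts the receptor complex down (chromosome 10, 19000910 to 19015410, minus strand). Tnfaip3 had lowest, median and highest levels of 3.69, 4.94 and 7.24 CPM in ctrl PBS, 4.60, 5.82 and 6.90 in TDP-PBS, 4.40, 5.02 and 5.88 in TDP10 + 12, and 3.93, 5.52 and 7.91 in TDP15. The groups overlapped almost fully, and only 1 rNLS8 mouse, of TDP15, lay above the highest control, mouse 232. The log2 fold changes were 0.17 (95% interval -0.03 to 0.36, adjusted p = 0.159), -0.02 (-0.22 to 0.18, adjusted p = 0.89) and 0.12 (-0.07 to 0.30, adjusted p = 0.30). Rel and Tnfaip3 both hold κB matches in the promoters printed above, as do Nfkb2 and Nfkbia. Tnf, Tnfrsf1a, Tnfrsf1b and Birc3 hold none in these windows, and Nfkb1 and Relb had no window. The search covered only 250 bases and 1 consensus, so that a missing match is not a missing site. A relation between the matches and the changes was not tested.

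Birc3 encodes a ubiquitin ligase of the receptor complex that also holds the noncanonical branch in check (chromosome 9, 7847468 to 7873205, minus strand). Its lowest, median and highest levels were 1.16, 1.84 and 3.12 CPM in ctrl PBS, 2.14, 3.04 and 3.95 in TDP-PBS, 2.28, 2.74 and 3.85 in TDP10 + 12, and 1.70, 2.86 and 3.91 in TDP15. The groups overlapped, with 12 of 17 controls at or above the lowest rNLS8 mouse, and 11 of 32 rNLS8 mice were above every control. On the log2 scale Birc3 changed by 0.66 (SE 0.13, adjusted p = 3.42e-05) in TDP-PBS, 0.56 (SE 0.13, adjusted p = 0.000398) in TDP10 + 12 and 0.54 (SE 0.12, adjusted p = 0.000278) in TDP15. Its close paralogue Birc2 was at 14.4 CPM in TDP-PBS and 14.3 CPM in ctrl PBS and did not pass the test (log2 fold change 0.00096, adjusted p = 0.992).

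The remaining rNLS8 groups gave the same counts or 1 fewer. In TDP10 + 12 mice 8 of the 10 genes were higher than in ctrl PBS and 0 lower, where 40.8% of tested genes were called and 20.8% were higher, and the log2 fold changes had a median of 0.38 over the 10 genes and of 0.0031 over all. In TDP15 mice 7 were higher and 0 lower, where 46.9% were called and 23.6% were higher, with a median of 0.42 over the 10 genes and -0.0015 over all. Without Tnf the counts were 7 and 6 of 9 and the medians 0.34 and 0.33. These 3 comparisons share the same 17 control mice. In none of them was every rNLS8 mouse above every control for any of the 10 genes, which held for 2.31% of tested genes in TDP-PBS, 2.23% in TDP10 + 12 and 2.45% in TDP15.

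Leaving out each of the 49 mice in turn gave 8 called genes throughout in TDP-PBS, 6 to 8 in TDP10 + 12 and 7 or 8 in TDP15. The changes in those counts came from Nfkb1 and Nfkbia as described.

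**Figure D3:**
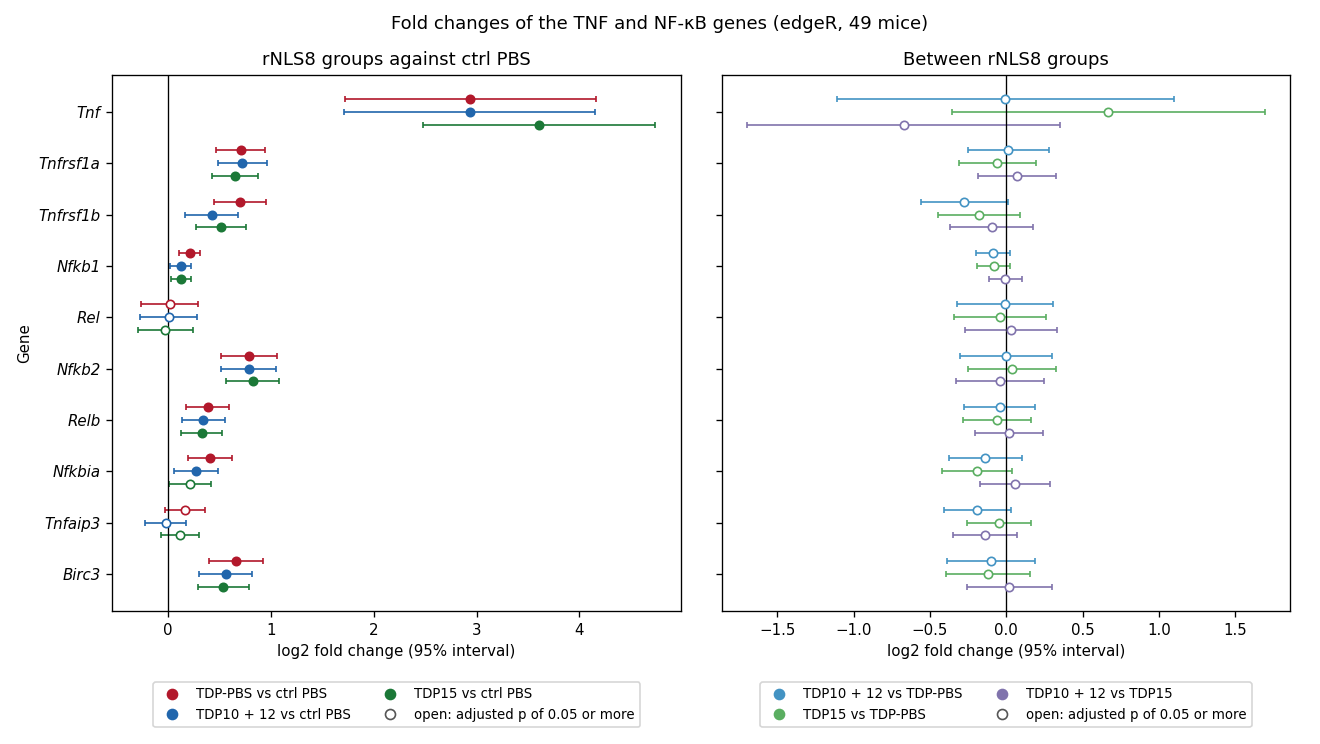
Fitted log2 fold change (x axis) of each gene (y axis) with its 95% interval, on the left for the 3 rNLS8 groups against ctrl PBS and on the right among the rNLS8 groups. Filled points have an adjusted p under 0.05, as 8, 8 and 7 genes do on the left, and all points on the right are open.

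The second question was whether immunization changed the pathway. In TDP10 + 12 against TDP-PBS, TDP15 against TDP-PBS and TDP10 + 12 against TDP15, 0 of the 10 genes passed the test, as did 0% of all tested genes, and 0 of the 10 had an unadjusted p under 0.05. Unadjusted p-values under 0.05 were found for 953, 552 and 1244 of the 18220 tested genes. By other tools, DESeq2 and limma-voom also called 0 of the 10 genes in each.

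For TDP10 + 12 against TDP-PBS the fitted difference was below 0 for 9 of the 10 genes. The median was -0.066 over the 10 genes and -0.0029 over all tested genes. The reference here is the same TDP-PBS group in which most of these genes were higher than in ctrl PBS, which favours signs below 0. Tnfrsf1b had the smallest p, with a log2 fold change of -0.27 (95% interval -0.56 to 0.01, unadjusted p = 0.0587, adjusted p = 0.953). Next came Tnfaip3 at -0.19 (-0.41 to 0.03, adjusted p = 0.954). The intervals allowed a change in Tnfrsf1a between -0.25 and 0.28 and in Nfkb2 between -0.30 and 0.30.

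For TDP15 against TDP-PBS, with the same reference group, the fitted difference was below 0 for 8 of the 10 genes. The median was -0.058 over the 10 genes and 0.00021 over all tested genes. Tnf was higher by 0.67, with a 95% interval from -0.36 to 1.69 (adjusted p = 0.9996). Nfkbia was at -0.19 (-0.42 to 0.04, adjusted p = 0.9996), and Nfkb1 at -0.08 (-0.19 to 0.03, adjusted p = 0.9996). Intervals for Tnf spanned 2 or more log2 units in all 3 comparisons, so that its level allows no close bound on an effect of either immunization.

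For TDP10 + 12 against TDP15, Tnf was at -0.67 (-1.69 to 0.35, adjusted p = 0.864) and Tnfaip3, with the smallest p, at -0.14 (-0.35 to 0.07, adjusted p = 0.861). The other 8 differences lay between -0.10 and 0.07.

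Sex was examined in the 27 PBS-treated mice, with 14 females and 13 males. Of 9 members tested, Tnf not reaching the filter there, 0 had a genotype by sex interaction, as did 0% of the 17363 tested genes. Rel had the smallest p, with a genotype effect of 0.36 in females and -0.27 in males on the log2 scale (difference -0.62, unadjusted p = 0.00691, adjusted p = 0.741), and 1 of the 9 members was under an unadjusted p of 0.05, as were 1097 of all tested genes. For Tnfrsf1a the effects were 0.74 in females and 0.72 in males, and for Birc3 they were 0.90 and 0.45 (adjusted p of the difference 0.804).

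The levels of different genes were compared per length of exon. That length joins the exons of all annotated transcripts of a gene, 12061 bases for Nfkb1, and can exceed that of the mRNA expressed. The order below therefore depends on the annotation. In ctrl PBS, per kilobase of annotated exon, Nfkbia was highest at 8.97 ± 1.48 CPM (SD, n = 17), followed by Tnfrsf1a at 3.32 ± 0.442, Relb at 1.30 ± 0.192, Nfkb1 at 1.04 ± 0.0719 and Tnfrsf1b at 0.948 ± 0.163. Then came Tnfaip3 at 0.718 ± 0.127, Rel at 0.637 ± 0.0904, Nfkb2 at 0.569 ± 0.0833 and Birc3 at 0.389 ± 0.103. Tnf was lowest at 0.0578 ± 0.123. Neighbours whose means differed by less than their summed SDs were Relb and Nfkb1, Nfkb1 and Tnfrsf1b, Tnfrsf1b and Tnfaip3, Tnfaip3 and Rel, Rel and Nfkb2, and Nfkb2 and Birc3. In all 3 rNLS8 groups Nfkbia, Tnfrsf1a and Relb kept the first 3 places. Nfkb2 moved from the place behind Rel to the one ahead of Tnfaip3, at 0.982 ± 0.235 in TDP-PBS.

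Other genes of the pathway were read from 8 lists of 110 genes, 86 of which passed the filter. In TDP-PBS 38 rose and 14 fell against ctrl PBS, and the median log2 fold change was 0.18. As shares these are 44.2% higher and 16.3% lower, where over all tested genes 21.9% were higher and 21.6% lower. Of the 86 genes 8 had a ctrl PBS mean under the 0.501 CPM of the filter and so passed it through rNLS8 mice, namely Mlkl, Tnfrsf9, Tnfrsf10b, Tnfrsf13c, Eda2r, Ccl2, Ccl5 and Cxcl10. Among the other 78 genes 32 rose and 14 fell, with the median at 0.13. The same lists gave 34 higher and 11 lower in TDP10 + 12 (39.5% and 12.8%, over all tested genes 20.8% and 20%). In TDP15 40 were higher and 15 lower (46.5% and 17.4%, over all tested genes 23.6% and 23.2%). Between rNLS8 groups 0 were called. The fold changes are plotted by list.

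**Figure D4:**
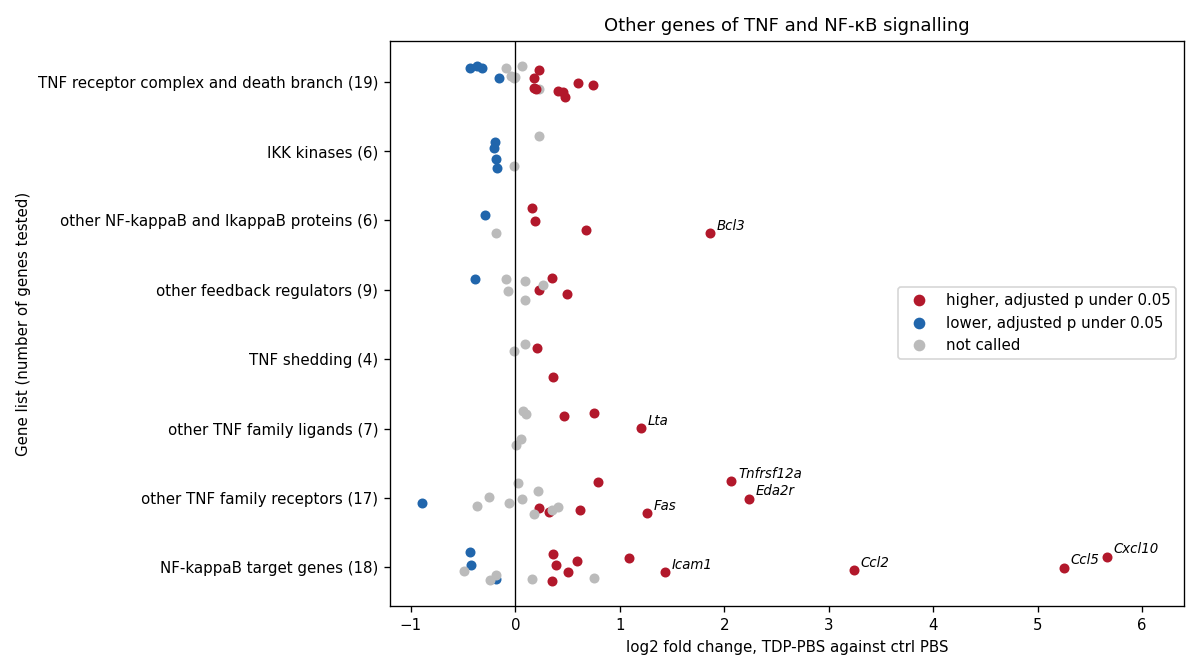
Fitted log2 fold change in TDP-PBS against ctrl PBS (x axis) of each tested gene in 8 lists (y axis, with the number tested), red for higher, blue for lower and grey for not called, with names for the largest called changes. The NF-κB targets reach from Ptgs2 at -0.49 to Cxcl10 at 5.66, whereas the 6 genes listed under IKK kinases lie between -0.20 and 0.22.

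In the receptor complex and its death branch 9 of 19 genes were higher and 4 lower in TDP-PBS, which is 47.4% and 21.1%, the latter close to the 21.6% lower over all tested genes. Casp8, the apical death caspase, rose by a log2 fold change of 0.60 (adjusted p = 0.000438), and Mlkl, the pore former of necroptosis, by 0.74 from a low level of 0.339 CPM (adjusted p = 0.0466). Mlkl passed the filter through rNLS8 mice, and without it 8 of 18 genes were higher and 4 lower. In TDP10 + 12 Mlkl, at a mean of 0.372 CPM, did not pass the test, and in TDP15 it was called higher. Rnf31, the catalytic subunit of the linear ubiquitin ligase, went from 34.2 to 47.8 CPM (log2 fold change 0.48) and Tab3, an adaptor of the TAK1 kinase, from 21.6 to 29.7 CPM (0.46). Cyld, a deubiquitinase that opposes the pathway, fell by 0.44 on the log2 scale, as did Traf5 by 0.37, Tradd by 0.32 and Spata2 by 0.16. In TDP15 the Tradd and Traf5 differences did not pass the test (adjusted p = 0.218 and 0.243).

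Of 6 genes listed under IKK kinases 0 were higher and 4 lower in TDP-PBS, where 21.9% of all tested genes were higher and 21.6% lower. Chuk was at -0.19, Ikbkb at -0.18 and Ikbkg at -0.18 (adjusted p = 0.0333, 0.0043 and 0.00772), and Tbk1 was at -0.20 (adjusted p = 0.000401). Map3k14, the kinase of the noncanonical branch, was at 0.22 (adjusted p = 0.0584) in TDP-PBS and was higher in TDP15 by 0.28 (adjusted p = 0.00904).

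Of 6 further NF-κB and IκB genes 4 were higher and 1 lower in TDP-PBS, which is 66.7% and 16.7%. Over all tested genes 21.9% were higher and 21.6% lower. Bcl3, a nuclear IκB protein, ran from 0.205 to 1.53 CPM in ctrl PBS and from 0.954 to 3.67 CPM in TDP-PBS, with 7 of 10 mice above every control (log2 fold change 1.86, SE 0.32). It was the largest change among the NF-κB and IκB genes measured. Nfkbie rose by 0.67, Nfkbib by 0.19 and Rela, the main transactivating subunit, by 0.16 (adjusted p = 0.00893). Nfkbid, another nuclear IκB, fell by 0.29 on the log2 scale.

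Of 9 tested feedback regulators 3 were higher and 1 lower, which is 33.3% and 11.1%. Over all tested genes 21.9% were higher and 21.6% lower. Zfp36, which destabilizes Tnf and other cytokine mRNAs, went from 7.03 to 9.92 CPM (log2 fold change 0.50, adjusted p = 0.00175). N4bp1 and Itch rose by 0.35 and 0.23, and Rnf11, a partner of the Tnfaip3 product, fell by 0.38. Of 4 genes that release TNF from the membrane or restrain this step, Rhbdf2 rose by 0.36 (adjusted p = 0.0447) and Timp3 by 0.21 (adjusted p = 0.0219) in TDP-PBS. In TDP10 + 12 neither passed the test (adjusted p = 0.0707 and 0.09), and in TDP15 Rhbdf2 rose by 0.45 (adjusted p = 0.00711) while Timp3 was at 0.11 (adjusted p = 0.20). The protease gene Adam17 was at -0.02 (adjusted p = 0.866).

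Among 7 tested ligands of the TNF family 3 were higher and 0 lower, the first being 42.9%. Over all tested genes 21.9% were higher and 21.6% lower. Lta, the neighbour of Tnf that signals through the same receptors, ran from 0.699 to 5.22 CPM in ctrl PBS and from 3.95 to 9.69 CPM in TDP-PBS (log2 fold change 1.204, SE 0.25, adjusted p = 8.33e-05). Tnfsf13b, a B cell survival factor, rose by 0.76 and Eda by 0.47. The other 10 of the 17 listed ligands did not pass the filter.

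Among 17 tested receptors of the family 7 were higher and 1 lower, which is 41.2% and 5.88%. Over all tested genes 21.9% were higher and 21.6% lower. Without the 4 receptors that are low in ctrl PBS it was 5 and 1 of 13. Tnfrsf12a, the receptor of TWEAK, went from 2.29 ± 0.679 CPM (SD, n = 17) to 9.63 ± 2.78 (n = 10), with a log2 fold change of 2.07 (SE 0.18). All 10 TDP-PBS mice were above every control for Tnfrsf12a, as they were for 2.31% of all tested genes. Eda2r rose by 2.24 from 0.207 CPM, Fas, a death receptor, by 1.26 and Tnfrsf10b by 0.79. Tnfrsf25, a receptor known from T cells, fell by 0.89 on the log2 scale.

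Of 18 tested NF-κB targets 10 rose and 3 fell, which is 55.6% and 16.7%, where over all tested genes 21.9% were higher and 21.6% lower. The median log2 fold change of the 18 was 0.38. Without Ccl2, Ccl5 and Cxcl10, which passed the filter through rNLS8 mice, 7 of 15 rose and 3 fell, with the median at 0.35. The chemokine Cxcl10 ran from 0 to 0.622 CPM in ctrl PBS and from 2.41 to 16.1 CPM in TDP-PBS (log2 fold change 5.66, SE 0.42). Ccl5 rose by 5.25, Ccl2 by 3.24 and the adhesion molecule Icam1 by 1.44. For these 4 genes, Cxcl10 included, all 10 TDP-PBS mice lay above every control, as they did for 2.31% of all tested genes. Sod2, a mitochondrial superoxide dismutase and a usual target of TNF, fell by 0.43, Ccnd1 by 0.43 and Bcl2l1 by 0.18. Ptgs2 was at -0.49 (adjusted p = 0.11) in TDP-PBS, at 0.16 (adjusted p = 0.626) in TDP10 + 12 and lower in TDP15 at -0.65 (adjusted p = 0.021), and Il6, Il1b, Cxcl1, Cxcl2, Il12b, Sele and Csf2 did not pass the filter.

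Cell type markers were measured beside these changes, in a comparison where 21.9% of all tested genes were higher and 21.6% lower in TDP-PBS. In bulk tissue a change in the number of cells of a type and a change in RNA per cell cannot be told apart. Of 10 microglial markers 6 were higher and 0 lower in TDP-PBS, among them Itgam at 0.46, and their summed level was 270 to 349 CPM in ctrl PBS and 328 to 431 CPM in TDP-PBS. Their median log2 fold change was 0.36. The 8 called members had log2 fold changes from 0.21 for Nfkb1 to 2.94 for Tnf in the same comparison. Of 8 astrocyte markers Gfap was higher, by 1.64, and Slc1a2 and Gja1 were lower. Their summed levels were 2975 to 3952 and 2706 to 3865 CPM.

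Of 8 neuronal markers 5 were lower and 0 higher, where 21.6% of all tested genes were lower and 21.9% higher. Nrgn at -0.81 and Snap25 at -0.68 led the decreases, and the summed level of the 8 was 7623 to 10213 CPM in TDP-PBS. Oligodendrocyte and endothelial markers had 0 of 6 called each in TDP-PBS, with summed levels of 3386 to 6166 and 3780 to 5423 CPM for the first and 119 to 174 and 105 to 164 CPM for the second. In TDP15, 2 of the 6 endothelial markers, Flt1 and Cdh5, were lower, where 23.2% of all tested genes were lower. What part cell composition has in the changes of the 10 genes was not tested.

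Most lymphocyte and neutrophil markers were scarce. Of 9 T and B lymphocyte markers 8 were in the table and 2 passed the filter, with Cd3d, Cd3e, Cd3g and Cd8a at means of 0.122 CPM or less in every group. Cd4 was at 19.7 CPM in ctrl PBS and 8.63 CPM in TDP-PBS, a fall by 1.19 on the log2 scale. The summed level of these markers was 3.63 to 36.8 CPM in ctrl PBS and 5.48 to 15.5 CPM in TDP-PBS. Of 7 neutrophil and monocyte markers 2 passed the filter, 0 were called in TDP-PBS, and their summed level was 0.991 to 24.2 and 1.73 to 11.3 CPM. Ly6g, which defines neutrophils, did not pass the filter. Its mean was 0.0314 CPM in TDP-PBS, under the floor of detection, and it was at 0 in all TDP10 + 12 and TDP15 mice. Of 8 blood and choroid plexus markers 0 were called in TDP-PBS, 3 were higher in TDP10 + 12, led by Ttr at 2.71 and Folr1 at 2.23, and 1 in TDP15, Ttr at 2.05. Over all tested genes 20.8% were higher in TDP10 + 12 and 23.6% in TDP15. The summed level of this list was 40.9 to 526 CPM in ctrl PBS and 41.9 to 1395 CPM in TDP-PBS.

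Mice varied along a common line for part of the genes. After the group means were removed, Pearson's r over the 49 mice, given as a description, was 0.61 for Tnfrsf1a with Nfkb2, 0.60 for Tnfrsf1a with Tnfrsf1b and 0.60 for Tnfrsf1b with Nfkb2. Tnf, Rel, Tnfaip3 and Birc3 stood outside this line, with r from -0.10 to 0.15 against Tnfrsf1a. In TDP15, mouse 126 had the highest level of Tnfrsf1a, Tnfrsf1b, Nfkb1, Nfkb2, Relb, Nfkbia and Birc3, and mouse 184 the lowest of the first 6 of these. Without mouse 126 the log2 fold changes of the TDP15 group were 0.57 for Tnfrsf1a, 0.42 for Tnfrsf1b and 0.28 for Relb, and all 3 calls were kept.

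The genes with the most similar pattern over the 49 mice were sought among 13536 other genes (13537 for Tnf, itself under this level) with a mean of at least 50 counts. For Tnfrsf1a they were Nupr1, Vim and Ifitm2 (r = 0.79, 0.78 and 0.76), for Tnfrsf1b Ccl5, Nckap1l and Slco2b1 (0.66, 0.65 and 0.63) and for Nfkb2 Axl, Slco2b1 and Oas2 (0.75, 0.75 and 0.74). Those most like Nfkb1 were Oas2, Irf9 and Oasl2 (0.58, 0.58 and 0.57), and those most like Relb were Sipa1, Rela and Zfp703 (0.69, 0.66 and 0.65). Nfkbia was most like Sgk1, Rhob and Slc2a1 (0.79, 0.77 and 0.74). For Rel they were Sgpl1, Frmd6 and Igsf9b (0.66, 0.64 and 0.63), for Tnfaip3 Prickle1, Pou3f3 and Ephb3 (0.66, 0.63 and 0.61), for Birc3 Adgrl2, Unc45a and Herc6 (0.53, 0.50 and 0.50) and for Tnf Cd180, Arhgap17 and Acsl1 (0.57, 0.52 and 0.51). The 49 points share tissue, assay and a similar depth.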

How the data were processed

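RNA was isolated by the authors from neocortex and sequenced as 100 bp paired-end reads, which were aligned to GRCm38.p6. The authors deposited unnormalized counts, with 1 column for each mouse and 1 row for each gene. The submitters' processing notes name HISAT, HISAT2, Bowtie, Bowtie2 and RSEM. Their roles, the annotation and the strand setting are not given in the sources used here. Total counts per mouse were 17775738 to 21033608, and the floor of 3 counts takes only counting error into account.

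Low genes were removed with filterByExpr (minimum count 10, minimum total 15). After TMM normalization, 1 model with the 4 groups and no covariate was fitted to the 49 mice by glmQLFit and tested by glmQLFTest (edgeR 4.0.16, R 4.3.3). All tests were two-sided, with Benjamini-Hochberg adjustment over 18220 genes and a threshold of 0.05. SE values were derived from the F statistic. Alternatives were RLE size factors, no filter, sex as a covariate, fits of only the 2 groups compared, DESeq2 1.42.0, limma-voom with quality weights (limma 3.58.1) and, chosen after the data had been seen, each mouse left out, the Tnf counts divided by 4, the lists without genes that are low in ctrl PBS and the Fisher and permutation tests of Tnf. Similarity used log2 CPM with a prior count of 2. Promoters and positions are from RefSeq GRCm38.p6 and exon lengths from GENCODE M21 (GRCm38), with SciPy 1.17.1 and matplotlib 3.10.9 under Python 3.11.15. The edgeR fit was tested on simulated counts for TDP-PBS against ctrl PBS, and the other steps were not.

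The 10 genes and all lists were chosen with earlier results of these data known. Genes were named by rule: all 10 members, per pathway list up to 4 called increases and 4 decreases in TDP-PBS, Rela and the IKK kinases, per marker list up to 2, and the 3 genes most similar to each member. Birc2, Psd, Adam17, Ptgs2, the uncalled targets, the genes counted in steps of 4, Cd4, the CD3 genes, Cd8a, Ly6g, Flt1, Cdh5, Folr1, Tnfrsf9 and Tnfrsf13c fall outside this rule, and their values were known when they were chosen. 1 marker gene that the rule names is not reported here. Nothing was paired, since every mouse is a separate animal.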

Additional observations from a re-analysis of the deposited data

Results flagged for a closer look

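The highest mouse stood apart from the rest of its group by Dixon's 95% criterion in 2 of the 20 cases examined, the 10 genes in the TDP-PBS and TDP10 + 12 groups. Chance flags about 1 in 20 groups. Tnfrsf1a was at 24.3 CPM in TDP10 + 12 mouse 301, where the next mouse was at 16.4 CPM. Nfkb1 was at 17.0 CPM in TDP-PBS mouse 124, where the next mouse was at 15.2 CPM. The calls of both genes in these groups were kept without the mouse concerned. The criterion used was that for 10 mice, and the ctrl PBS and TDP15 groups, of 17 and 12 mice, were not examined. In TDP15, Nfkb2 was at 9.19 CPM in mouse 126, where the next mouse was at 5.57 CPM.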

How the results depend on the processing

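The number of the 10 genes called in each of the 6 comparisons, the number with a genotype by sex interaction and the number of pathway genes called in TDP-PBS stayed within 1.5 times the reported value under the alternatives that were run. For single genes, 350 of 360 values kept their direction and their side of the threshold. Against ctrl PBS these were 60 in TDP-PBS, 54 in TDP10 + 12 and 59 in TDP15. Each of these 3 numbers includes 1 unplanned fit with the Tnf counts divided by 4, which do not pass the filter. Division by a constant hardly alters the ratio of the groups, so that agreement of this fit says little. The rest of the 350 came from the 3 comparisons between rNLS8 groups, where none of the 10 genes was called, so that no call could be lost. The 5 calls lost were Nfkb1 in TDP10 + 12 (3 alternatives) and in TDP15 (no filter) and Nfkbia in TDP10 + 12 (limma-voom), as given beside those genes, and the cause was not tested. Signs turned 5 times, all with limma-voom and all between values that passed no test: Rel at -0.13 and Tnfaip3 at 0.0066 in TDP10 + 12 against ctrl PBS, Tnfrsf1a at -0.025 in TDP10 + 12 against TDP-PBS, and Rel at -0.12 and Relb at -0.019 in TDP10 + 12 against TDP15. In fits of ctrl PBS with only 1 rNLS8 group Tnf did not reach the filter. No paired analysis was possible because every mouse is a separate animal and the animal numbers are not shared between groups. Depth limits Tnf most, with 0 counts in 15 of 49 mice.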
